A study of Mus musculus with 8 samples.

Results

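The core circadian clock genes were followed in 8 mouse kidney libraries. All 10 members, chosen by symbol and not by their values, were found among the 15948 genes of the deposited table: Bmal1 (also called Arntl), Clock, Npas2, Nr1d1, Nr1d2, Dbp, Per3, Per2, Cry1 and Cry2. The study addressed Arhgef11, which encodes a guanine nucleotide exchange factor, in hypertension and kidney injury. Its control group was labelled Sglt2Cre_DOCA (5 libraries), and the other group Arhgef11Sglt2_DOCA (3 libraries). Both names carry Sglt2, the glucose transporter whose promoter drives Cre in the proximal tubule; the kidney tissue that was sequenced also holds the cell types this driver does not target, and the labels give no further alleles. DOCA, the mineralocorticoid deoxycorticosterone acetate, was given to both groups, and no kidney without it was analysed here. For age, sex and the hour of tissue collection no source used here gave a value, and the labels do not say whether the samples came from separate animals, so p-values measure the spread between these libraries, which may be partly technical.

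The mammalian clock is a loop of transcription. BMAL1, paired with CLOCK or its relative NPAS2, binds E-box sequences and switches on the Per and Cry genes, the nuclear receptor genes Nr1d1 and Nr1d2 (REV-ERB alpha and beta) and the output factor Dbp. PER and CRY proteins then block BMAL1, while REV-ERB proteins repress Bmal1, Clock, Npas2 and Cry1 through the ROR response element. Bmal1 and Npas2 therefore peak when Nr1d1 and Dbp are low. Which arm is high in a single sample is a coarse sign of its place in the cycle. The balance of the arms alone does not tell a rising course from a falling one. In kidney the clock runs in most cell types and is known for its part in the daily rhythm of sodium, water and urea excretion.

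Elements of this loop can be read in promoters of some of the genes described below. Promoter windows from RefSeq on GRCm38.p6, another build than the one used for the reads, and spanning each annotated start, were found for 9 of the 10 members. The E-box CACGTG, which BMAL1 binds, was present in 7.15% of the 32851 windows of all genes. The D-box, which DBP and its relatives bind, was searched as TTATGTAA, TTATGCAA or TTACGTAA and was present in 1.78%. The ROR element was searched as TAGGTCA or TGGGTCA and was present in 6.45%. Both strands were searched, and no match overlapped another. Of the members, 3 held a match: Cry1, Per3 and Bmal1. Only Cry1 among them held the E-box. Clock, Npas2, Nr1d1, Nr1d2, Dbp and Cry2 held no match in these windows, though Nr1d1, Nr1d2 and Dbp are named above as E-box targets. Ciart, Per1, Tef and Nfil3, clock genes outside the member list, held matches too. The stretches below show a match of each kind, on the strand of the gene, 5′ to 3′, with the matches in capitals. A match is a description of these letters, not a bound site.
Cry1, E-box, chr10:85185085-85185144, minus strand: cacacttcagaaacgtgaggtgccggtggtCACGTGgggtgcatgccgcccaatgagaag
Ciart, 3 E-boxes, chr3:95882259-95882358, minus strand: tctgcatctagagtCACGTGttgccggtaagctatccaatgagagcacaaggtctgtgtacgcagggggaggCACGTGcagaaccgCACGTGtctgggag
Per1, E-box, chr11:69098759-69098808, plus strand: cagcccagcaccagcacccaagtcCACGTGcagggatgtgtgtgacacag
Per3, 2 D-boxes, chr4:151044801-151044890, minus strand: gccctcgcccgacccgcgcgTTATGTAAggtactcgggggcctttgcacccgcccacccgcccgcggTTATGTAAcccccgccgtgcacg
Bmal1, ROR element after the start, chr7:113207530-113207559, plus strand: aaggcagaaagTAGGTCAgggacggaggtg
Nfil3, ROR element in reverse orientation, chr13:52981041-52981070, minus strand: gtagcgcggcgctcggaacTGACCTActaa

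Values are normalized counts, obtained by inverting the variance-stabilized log2 scale of the deposited table. They are not divided by transcript length, so levels are compared between libraries and not between genes. Normalized counts per library summed to 43039280 to 46676184, and the sequencing depth, estimated from the spacing of low values, was 33200000 to 59600000 reads. Control replicates 4 and 5 had the lowest estimates (33200000 and 33500000). The proximal tubule markers Lrp2, Slc34a1, Slc5a2, Slc7a13 and Cubn were abundant in every library, but their sum did not overlap between the groups: 325397 to 377362 normalized counts in the controls and 179763 to 274190 in the Arhgef11Sglt2 libraries. Of these 5 markers, 3 were lower with an adjusted p under 0.05 in limma (Lrp2, adjusted p = 0.0462; Slc34a1, 0.0491; Slc7a13, 0.037). Fat markers were not even between libraries. Adipoq, Plin1 and Cfd together had 1700 in control replicate 2, 962.6 in Arhgef11Sglt2 replicate 2, 673.5 in control replicate 1 and 342.9 in Arhgef11Sglt2 replicate 1, and no more than 24.06 in the other 4 libraries. The targeted transcript did not check the labels: for Arhgef11, the controls had 3680 ± 161.6 normalized counts (mean ± SD over 5 libraries, as for the other control means below) and the libraries labelled Arhgef11Sglt2 had 3587 ± 564.1 (mean ± SD over 3), with a limma adjusted p of 0.834. The part of the transcript that was deleted is not named in the labels. Both groups are therefore named below as labelled.

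The balance between clock genes of opposite phase differed from library to library, and both groups held libraries at both ends. The activator arm, Bmal1, Npas2 and, less steeply, Clock, was high where Nr1d1, Nr1d2, Dbp and Per3 were low. Control replicate 2 and Arhgef11Sglt2 replicate 3 shared a low Bmal1 and a high Dbp, while control replicates 4 and 5 showed the reverse. Arhgef11Sglt2 replicate 1 had a high Npas2 and a low Dbp with Bmal1 close to the control mean. No member passed an adjusted p of 0.05 between the groups, and Cry1 alone had no overlap between them.

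**Figure D1:**
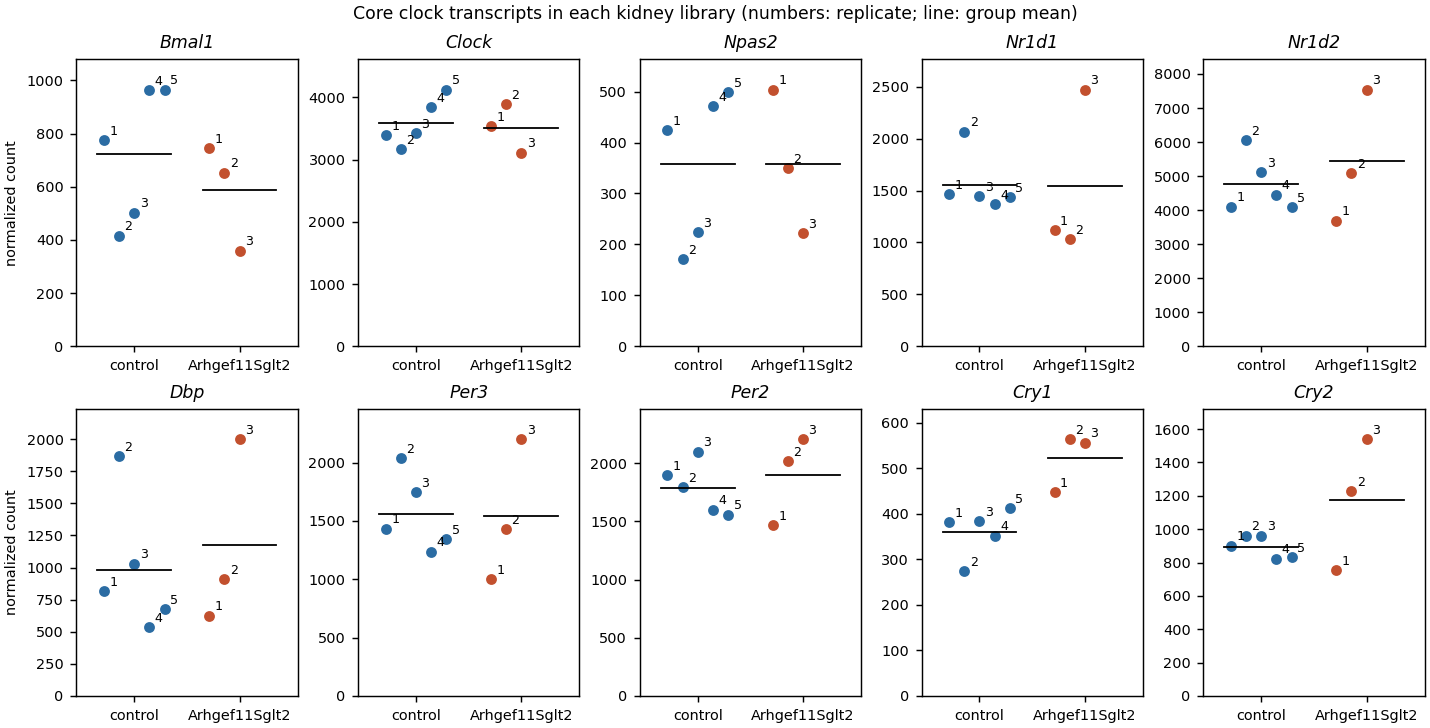
Normalized counts (y axis, from 0) of the 10 core clock transcripts in 5 control libraries (blue) and 3 Arhgef11Sglt2 libraries (red), numbered by replicate, with the group mean as a line. Bmal1 runs from 360.3 to 964.3 and Dbp from 535.1 to 1998, with both groups spread over most of the range, whereas the 3 Arhgef11Sglt2 libraries lie above all controls for Cry1.

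Among the activators, Bmal1, the obligate partner of the loop, had 775.3, 415.6, 503, 962.9 and 964.3 normalized counts in the controls, in order of replicate number as in every such series below. In the Arhgef11Sglt2 libraries it had 745.5, 653.2 and 360.3. The lowest library was thus Arhgef11Sglt2 replicate 3, followed by control replicates 2 and 3, and the groups overlapped. Npas2, which can take the place of CLOCK beside BMAL1, had 424.6, 171.5, 223.7, 470.7 and 498.4 in the controls and 503.3, 349.4 and 222.2 in the Arhgef11Sglt2 libraries. The same 3 libraries were lowest for Npas2, and its highest value was 2.93 times its lowest. Clock, whose transcript is known to cycle shallowly in many tissues, had 3391, 3171, 3424, 3842 and 4121 in the controls and 3536, 3890 and 3108 in the Arhgef11Sglt2 libraries. Its highest library was 1.33 times its lowest, and the 2 lowest were again Arhgef11Sglt2 replicate 3 and control replicate 2.

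The repressors of the activator arm ran the other way. Nr1d1 (REV-ERB alpha) had 1466, 2067, 1448, 1371 and 1433 normalized counts in the controls and 1117, 1031 and 2469 in the Arhgef11Sglt2 libraries. Only control replicate 2 and Arhgef11Sglt2 replicate 3 stood high, and Arhgef11Sglt2 replicates 1 and 2 lay below every control. Nr1d2 (REV-ERB beta) had 4106, 6054, 5120, 4460 and 4093 in the controls and 3685, 5094 and 7534 in the Arhgef11Sglt2 libraries. Its 3 highest libraries were Arhgef11Sglt2 replicate 3 and control replicates 2 and 3, the 3 in which Bmal1 was lowest.

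The output factor and the period genes followed Nr1d2. Dbp, a PAR bZIP transcription factor that carries clock time to D-box genes, had 814.9, 1867, 1030, 535.1 and 673.7 normalized counts in the controls and 626.4, 909.9 and 1998 in the Arhgef11Sglt2 libraries. Its 3.73-fold range over the libraries was the widest among the members. Per3, whose promoter stretch above holds the 2 D-boxes, had 1432, 2037, 1746, 1237 and 1345 in the controls and 999.3, 1429 and 2198 in the Arhgef11Sglt2 libraries. Dbp and Per3 had the same 3 highest libraries as Nr1d2. Per2, a period protein that inhibits BMAL1 together with CRY, had 1897, 1795, 2098, 1601 and 1557 in the controls and 1466, 2016 and 2205 in the Arhgef11Sglt2 libraries. Per2 departed from Dbp in control replicate 2, where it was close to the control mean.

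The cryptochromes, which are the strongest inhibitors of BMAL1, differed from each other. Cry1 had 381.4, 273.8, 383.3, 351.8 and 412.3 normalized counts in the controls and 446.9, 563 and 555.8 in the Arhgef11Sglt2 libraries. All 3 Arhgef11Sglt2 libraries lay above every control, and the lowest of them was near control replicate 5. Cry2 had 901.4, 961.6, 960.9, 822.4 and 831.1 in the controls and 755.5, 1228 and 1538 in the Arhgef11Sglt2 libraries. Arhgef11Sglt2 replicates 2 and 3 lay above all controls for Cry2, and replicate 1 lay below all of them.

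The balance of the arms in each library was summarised by an antiphase index. It is the mean log2 deviation of Bmal1, Clock and Npas2 from the control mean, minus that of Nr1d1, Nr1d2, Dbp and Per3. The index is a description and was not tested. Among the controls it was 0.44 in replicate 4, 0.43 in replicate 5, 0.17 in replicate 1, -0.27 in replicate 3 and -0.76 in replicate 2. Among the Arhgef11Sglt2 libraries it was 0.48 in replicate 1, 0.12 in replicate 2 and -0.93 in replicate 3. The highest and the lowest index of the 8 libraries thus both belonged to the Arhgef11Sglt2 group, and the controls lay in between. The fat markers did not follow this order: control replicate 2 (index -0.76) had the highest sum, and Arhgef11Sglt2 replicate 3, with the lowest index, had 24.06, with Adipoq and Cfd at 0. Some other marker sums differed between Arhgef11Sglt2 replicates 1 and 3, at the ends of the index. In the leukocyte, fibroblast and collecting duct sums given next, control replicate 2 (index -0.76) lay within the range of the other controls. The leukocyte markers Ptprc, Cd3e, Adgre1 and Cd79a had 2707, 2816 and 3224 normalized counts in the 3 libraries of highest index (Arhgef11Sglt2 replicate 1, control replicates 4 and 5), 1941 to 2230 in the next 4, and 1132 in Arhgef11Sglt2 replicate 3. The fibroblast markers Col1a1, Pdgfra and Dcn had 17439 in Arhgef11Sglt2 replicate 1, 7123 in Arhgef11Sglt2 replicate 3 and 11701 to 13540 in the others. Col1a1 had 11404 in replicate 1 and 1989 in replicate 3 of that group, whereas Pdgfra had 2760 and 2708 and Dcn 3275 and 2425. The collecting duct markers Aqp2 and Slc4a1 together had 13566 in Arhgef11Sglt2 replicate 3 and at most 8350 in the others. That sum followed Aqp2, which had 12563 in this library and at most 6560 in the others. Slc4a1 had 1003 in this library, below the 1263 to 2492 of the controls. In Arhgef11Sglt2 replicates 1 and 2 it had 590.1 and 1583. Aqp2 is also among the kidney genes described below as clock outputs. The part of these cell types, or of fat in control replicate 2, in the clock values was not tested.

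**Figure D2:**
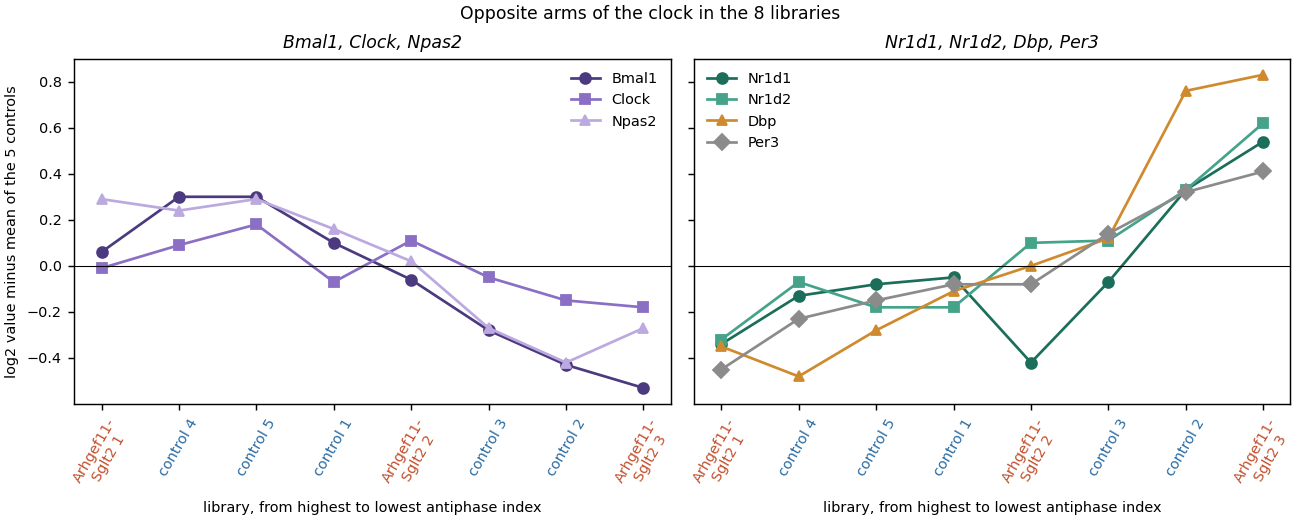
Log2 value minus the mean of the 5 controls (y axis) for the activator arm (left) and for Nr1d1, Nr1d2, Dbp and Per3 (right), with the libraries ordered from highest to lowest antiphase index (x axis; blue labels, control; red labels, Arhgef11Sglt2). Bmal1 goes from 0.30 in control replicate 4 to -0.53 in Arhgef11Sglt2 replicate 3 while Dbp goes from -0.48 to 0.83, and Nr1d1 in Arhgef11Sglt2 replicate 2 (-0.42) falls outside the course of its arm.

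The order of the libraries was then read inside each group. In the 5 controls the order of Bmal1 from high to low, replicates 5, 4, 1, 3 and 2, was nearly the order of Dbp from low to high, replicates 4, 5, 1, 3 and 2. In the 3 Arhgef11Sglt2 libraries Bmal1 and Npas2 were highest in replicate 1 and lowest in replicate 3, and Dbp, Per3, Nr1d2, Per2 and Cry2 were in the opposite order. Clock, highest in replicate 2, and Nr1d1, lowest in replicate 2, were exceptions. Groups of 5 and 3 are too small for a correlation of their own, so relations were computed over the 8 libraries for all 45 pairs of members, with two-sided exact permutation tests and Benjamini-Hochberg adjustment over the 45. In Pearson's r, 14 pairs passed an adjusted p of 0.05, and in Spearman's rho 16. The share that passes among pairs of other genes was not computed, so these counts do not set the members apart from genes at large.

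All 12 pairs between the activator arm and the arm of Nr1d1, Nr1d2, Dbp and Per3 were negative, with r from -0.94 to -0.63, and 6 passed. Bmal1 and Dbp had r = -0.94 (exact permutation p = 0.000446, adjusted 0.00893) and rho = -0.88 (exact permutation p = 0.00724, adjusted 0.0402). Without the 2 libraries farthest from the median of Bmal1, which were control replicate 2 and Arhgef11Sglt2 replicate 3, r was -0.87. Centred on each group mean, the 12 pairs were again all negative (r from -0.94 to -0.62). Without control replicate 2 and Arhgef11Sglt2 replicate 3, 10 of the 12 were negative (r from -0.87 to 0.19).

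Within the arms all 9 pairs were positive. Bmal1 and Npas2 had r = 0.93 (exact permutation p = 0.00181, adjusted 0.0124; rho = 0.83, exact permutation p = 0.0154, adjusted 0.0432) and 0.89 without control replicate 2 and Arhgef11Sglt2 replicate 3. Dbp and Per3 had r = 0.93 (exact permutation p = 0.000645, adjusted 0.00893; rho = 0.95, exact permutation p = 0.00114, adjusted 0.0257) and 0.81 without the same 2 libraries. The relations of Nr1d1 rested largely on those 2 libraries. Its r with Bmal1 went from -0.68 to 0.19 without them, with Nr1d2 from 0.79 to -0.05 and with Dbp from 0.83 to 0.00. With Per3 it went from 0.85 to 0.45. The r of Clock with the opposite arm also weakened without them. It went from -0.63 to 0.04 with Nr1d2 and from -0.72 to -0.18 with Nr1d1. With Per3 it went from -0.68 to -0.18, and with Dbp from -0.79 to -0.40.

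Per2, Cry1 and Cry2 belong to neither arm of the index. Of the 7 pairs of Per2 with genes of the arms, 0 passed in Pearson's r or in Spearman's rho (r from -0.72 to 0.77). Of those of Cry2, 1 passed in Pearson's r and 4 in Spearman's rho. Per2 and Cry2 had r = 0.84 (exact permutation p = 0.00372, adjusted 0.0209; rho = 0.86, exact permutation p = 0.0107, adjusted 0.0402). Cry2 and Nr1d2 had r = 0.86 (exact permutation p = 0.00709, adjusted 0.029; rho = 0.86, exact permutation p = 0.0107, adjusted 0.0402), and 0.51 without the 2 libraries farthest from the median of Nr1d2. Cry1 had r between -0.17 and 0.18 with the 7 genes of both arms, and none of its pairs passed. That of Cry1 with Nr1d1 was -0.87 without control replicate 2 and Arhgef11Sglt2 replicate 3. Centred on each group within each range of library numbers, described next, its r with the 7 genes ran from -0.81 (Nr1d1) to 0.96 (Clock). These were the extremes, and the rest lay from -0.42 (Dbp) to 0.42 (Bmal1).

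**Figure D3:**
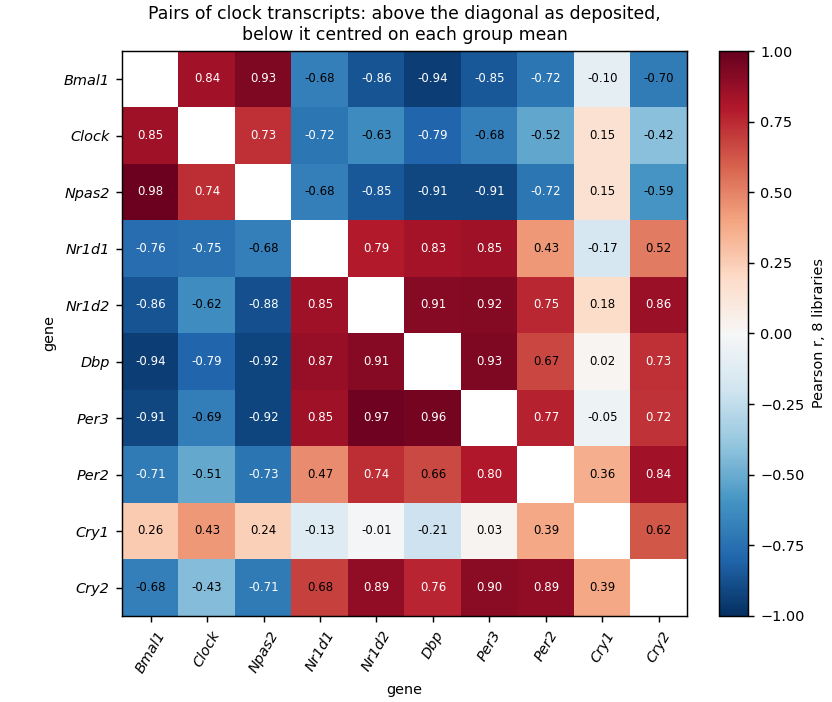
Pearson's r over the 8 libraries for each pair of the 10 clock transcripts, on the deposited values above the diagonal and on values centred on each group mean below it (colour scale from -1 to 1). The 12 pairs between arms are negative on both sides, and Cry1 is pale against the 7 genes of the arms above the diagonal (-0.17 to 0.18).

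The library names carry numbers that fall into a lower range, here the first (control replicates 1, 2 and 3, Arhgef11Sglt2 replicates 1 and 2), and a higher one, the second (control replicates 4 and 5, Arhgef11Sglt2 replicate 3). The labels say that the kidneys came from more than 1 study and were pooled for sequencing, and do not say what the ranges stand for. Controls of the second range had a higher Bmal1 than those of the first by 0.51 and a lower Dbp (log2 difference -0.64), and had the lowest estimated depth. Each range holds fewer than 6 libraries, so r was computed on values centred on each group within each range: Bmal1 with Dbp had -0.85, Bmal1 with Npas2 0.97 and Dbp with Per3 0.89, while Clock had 0.21 with Bmal1, -0.16 with Dbp and -0.62 with Nr1d1. Of the 12 pairs between arms, 10 were then negative. Arhgef11Sglt2 replicate 3 is the only library of its group in the second range. This centring therefore set it to 0 for every gene, and these r rest on the other libraries.

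The comparison of the groups asked whether kidneys labelled Arhgef11Sglt2 differed in clock transcripts. Of the 10 members, 0 passed an adjusted p of 0.05 in limma, where 2.22% of all genes did (0.627% higher and 1.59% lower). At an unadjusted p under 0.05 there was 1 member, Cry1, where 21.1% of all genes passed. The median log2 difference of the members was 0.04, and that of all genes was -0.01. Cry1 was 1.45 times as high on average (360.5 ± 52.98 against 521.9 ± 65.03 normalized counts). Its log2 difference was 0.28 on the deposited scale (SE 0.08, limma adjusted p = 0.0944), the scale of the other differences and intervals given here. That scale compresses differences of genes with low counts. On the log2 of normalized counts plus 1, the difference of Cry1 was 0.54. The sum of the proximal tubule markers separated the same groups, and its part in the value of Cry1 was not tested. The exact permutation p of Cry1 over the 56 splits, two-sided and unadjusted, was 0.0179, the smallest possible. Cry1 was the 1 member without overlap between the groups, as were 14.3% of all genes (6.2% higher).

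The intervals of the other 9 members included 0, the narrowest being that of Clock (-0.24 to 0.18). For Dbp the log2 difference was 0.16 with a 95% interval from -0.52 to 0.84 (984.2 ± 526.5 against 1178 ± 724.3 normalized counts, limma adjusted p = 0.803). For Bmal1 it was -0.18 with an interval from -0.61 to 0.26 (724.2 ± 255.6 against 586.3 ± 201.1, limma adjusted p = 0.644). Cry2 had 895.5 ± 67.4 against 1174 ± 393.8 (log2 difference 0.24, interval -0.06 to 0.54, limma adjusted p = 0.34). Npas2 had 357.8 ± 149.7 against 358.3 ± 140.8, with an interval from -0.40 to 0.42. The remaining 5 members had log2 differences from -0.07 (Nr1d1) to 0.13 (Nr1d2) and adjusted p from 0.732 to 0.922. Without Arhgef11Sglt2 replicate 1, the library with the highest index, Cry1 (adjusted p = 0.0428) and Cry2 (0.0226) passed in limma, where 8.36% of all genes did. With array weights, Cry1 passed (limma adjusted p = 0.0337), where 5.48% of all genes did.

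**Figure D4:**
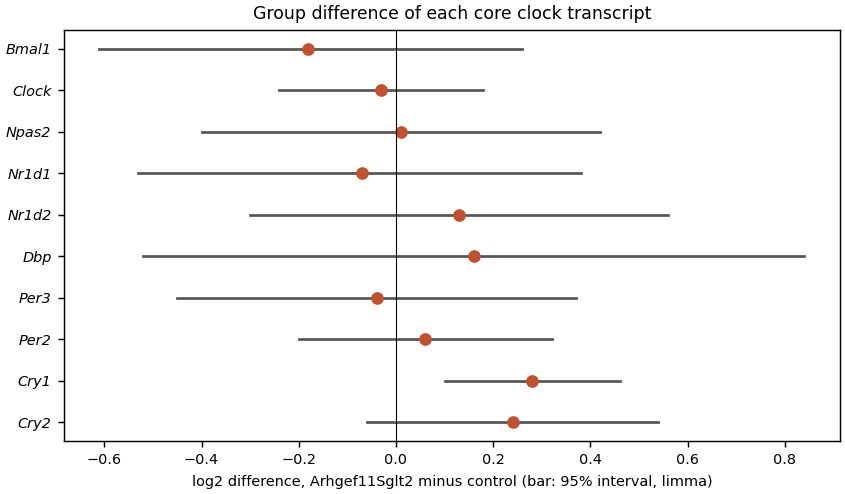
Log2 difference between the groups (x axis, Arhgef11Sglt2 minus control, on the deposited scale) for each clock transcript, with the 95% interval from limma as a bar. The interval of Cry1, 0.10 to 0.46, lies above 0, and those of the other 9 members include 0.

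Within the ranges of library numbers the group difference of most members had opposite signs. In the first range, Bmal1 was higher by 0.20 in the Arhgef11Sglt2 libraries on the log2 scale, and in the second range its difference was -0.83. Dbp had -0.43 and 1.21, Nr1d1 -0.45 and 0.64, and Per3 -0.39 and 0.60. The second range holds 1 Arhgef11Sglt2 library, replicate 3, so its values are those of a single library against 2. A test of the interaction between group and range in limma, chosen after the values were seen, gave no member an adjusted p under 0.05 (lowest adjusted p = 0.159, Nr1d1), where 0.0125% of all genes had one, and it rests on the same single library. For Cry1 the difference was 0.29 in both ranges.

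**Figure D5:**
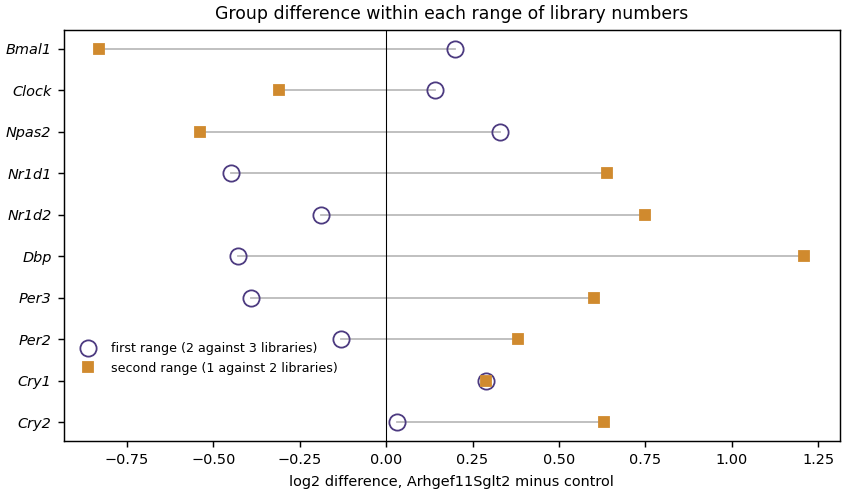
Log2 difference between the groups (x axis, Arhgef11Sglt2 minus control) within the first range of library numbers (circles, 2 against 3 libraries) and the second (squares, 1 against 2 libraries) for each clock transcript. The signs are opposite for 8 members, Cry2 is near 0 (0.03) in the first range and at 0.63 in the second, and the marks of Cry1 coincide at 0.29.

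The members varied more between libraries of a group than most genes did. The within-group SD on the deposited log2 scale was 0.523 for Dbp, above that of 99.3% of all genes, and 0.328 for Bmal1, above 96.8%. Nr1d1, Nr1d2, Npas2 and Per3 lay above 96.1% to 97.2%. Cry1 had an SD of 0.108, above that of 45.8% of genes, and it was the 1 member below the median of all genes (0.113). Clock (63.4%), Per2 (80.7%) and Cry2 (88.3%) lay in between. Among the controls alone the order of the cryptochromes turned: Cry2 had an SD of 0.073, above that of 31.7% of genes, and Cry1 0.11, above 60.5%. Dbp (99.3%), Bmal1 (97.8%) and Npas2 (97.5%) stayed high there. The scale compresses differences of genes with low counts, so these shares compare genes of unequal level.

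Some clock genes that are not members had the same order of libraries at its ends. Ciart, a repressor of BMAL1 whose promoter stretch above holds the 3 E-boxes, had 46.04, 191, 70.03, 34.04 and 42.91 normalized counts in the controls and 39.38, 44.62 and 215.8 in the Arhgef11Sglt2 libraries. Its 2 highest libraries were Arhgef11Sglt2 replicate 3 and control replicate 2, and its 6.34-fold range over the libraries exceeded that of Dbp. Nfil3, a bZIP repressor that acts against DBP at D-boxes, had 662.1, 355.7, 653.3, 737.9 and 734.5 in the controls and 744.2, 636.1 and 552.9 in the Arhgef11Sglt2 libraries, and was lowest in control replicate 2 and Arhgef11Sglt2 replicate 3. Centred on each group mean, Ciart had r = 0.97 with Dbp and -0.90 with Bmal1, and Nfil3 -0.89 and 0.82, given as descriptions over 8 libraries. Tef, a PAR bZIP relative of DBP, had r = 0.85 with Dbp. Hlf, the other relative, had 0.46; it was lowest in Arhgef11Sglt2 replicate 1 (2239 normalized counts against 3614 to 4733 in the other libraries).

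The members with a mean at or above the median of all genes were placed among such genes by likeness to Dbp and to Bmal1. Bmal1, Npas2 and Cry1 lay below that median and were not placed. Their group-centred r with Dbp was -0.94, -0.92 and -0.21. With Bmal1, Npas2 had 0.98 and Cry1 0.26. Of 7973 genes with a mean at or above the median, ranked by group-centred r with Dbp, Per3 was in place 4 (0.96), Nr1d2 in place 44 (0.91), Nr1d1 in place 143 (0.87), Cry2 in place 498 (0.76) and Per2 in place 909 (0.66), and Clock was in place 313 from the lowest (-0.79). Of 7974 such genes ranked against Bmal1, Dbp was in place 6 from the lowest (-0.94), Per3 in place 29 (-0.91), Nr1d2 in place 117 (-0.86), Nr1d1 in place 448 (-0.76), Per2 in place 623 (-0.71) and Cry2 in place 751 (-0.68), while Clock was in place 131 from the highest (0.85). The genes most like Bmal1 were C1s1, Nkapd1, Colec12, Ddr2 and Cmpk2 (0.96 to 0.99), and those most opposed were Cep57, Pabpc4, Cltb, Vamp8 and Eif4h (-0.97 to -0.95). The genes most like Dbp were Tsnax, Otub1, Orai3, Per3 and Cpsf3 (0.96 to 0.99), and those most opposed were Bcl2, Itpripl2, Fndc3b, H2-Q7 and Tgtp2 (-0.99 to -0.98). These names describe an order over 8 libraries that differ in depth, and no test was made.

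Of 39 other clock pathway genes, all measured, 0 passed an adjusted p of 0.05 between the groups in limma, and 11 had an unadjusted p under 0.05; over all genes the shares were 2.22% and 21.1%. Their median log2 difference was 0.06. Among 9 E-box targets and PAR bZIP partners (median 0.20), the smallest p belonged to Per1, a period gene that glucocorticoids also induce. Per1 had 1210, 1393, 1674, 1118 and 815.5 normalized counts in the controls and 1460, 2308 and 2921 in the Arhgef11Sglt2 libraries. Replicates 2 and 3 lay above all controls and replicate 1 lay among them (log2 difference 0.64, SE 0.19, limma adjusted p = 0.108). Without replicate 1 the difference was 0.86 and passed (limma adjusted p = 0.0257). Nampt, the rate-limiting enzyme of NAD salvage, had 8684 ± 349.5 against 11383 ± 2832 (limma adjusted p = 0.165), and passed without the same replicate (0.0347).

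Activators of Bmal1 and regulators of PER and CRY also did not pass. Rora, a nuclear receptor that activates Bmal1, had 3061 ± 482.8 against 3825 ± 519.9 normalized counts (limma adjusted p = 0.214). The second BMAL gene, Bmal2, had 88.09 ± 19.67 against 115.7 ± 27.47 (limma adjusted p = 0.383). Among 11 kinases, ubiquitin ligases and cofactors (median 0.04), Csnk1e, a casein kinase that phosphorylates PER, had 1055 ± 153.8 against 1367 ± 154 (limma adjusted p = 0.157), and Sfpq, a splicing factor found in PER complexes, had 7337 ± 280.1 against 8791 ± 1339 (0.178).

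Inputs and outputs of the clock gave the same count. Among 5 glucocorticoid-induced genes (median 0.44), Fkbp5 had 2745, 2821, 4890, 2953 and 2631 normalized counts in the controls and 3972, 7404 and 5524 in the Arhgef11Sglt2 libraries. Control replicate 3 overlapped with the other group (log2 difference 0.72, limma adjusted p = 0.1), and without Arhgef11Sglt2 replicate 1 Fkbp5 passed (0.0336). Zbtb16 had 283.9 ± 151.6 against 689.9 ± 375.5 (limma adjusted p = 0.155). Among 6 kidney genes described as clock outputs (median -0.03), Avpr2, the vasopressin receptor of the collecting duct, had 707.8 ± 127.8 against 404.6 ± 208.3 (limma adjusted p = 0.13, and 0.0289 without Arhgef11Sglt2 replicate 1). Aqp4, a water channel, had 3954 ± 993.6 against 2269 ± 830.1 (limma adjusted p = 0.136, and 0.0198 with array weights). In bulk kidney, fewer cells of a type and less RNA per cell cannot be told apart. Among 3 PAR bZIP outputs (median 0.21), Nr1i3 had 10.12 ± 7.339 against 31.75 ± 17.36 (limma adjusted p = 0.17, and 0.0466 without Arhgef11Sglt2 replicate 1), and Alas1, the first enzyme of heme synthesis, had 6044 ± 1380 against 7652 ± 724 (0.249).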

How the data were processed

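Messenger RNA of kidney tissue was sequenced as stranded paired-end libraries, per the labels' protocols. Salmon 1.10.0, DESeq2 and the build GRCm39 were used, per the submitters' processing notes; the annotation, the gene filter and the DESeq2 version were not among them. Values in the deposited table are on a log2 scale and read as variance-stabilized from their distribution: none of the 8 columns is whole-numbered and the minimum, 8.1275, was taken as the value of a zero count. From that minimum, q = (y - m)²/y, with y the linear deposited value and m its minimum, gave normalized counts.

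Low values lay within 0.02 steps of whole multiples of 1 read for only 13.8% to 52% of values, so no count model was used. The spacing gave the depth, 33200000 to 59600000 reads. Symbols matched 15902 identifiers (99.71%).

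limma 3.58.1 (R 4.3.3; group as the only term, mean-variance trend, Benjamini-Hochberg over 15948 genes at 0.05) was run on the deposited log2 values. The fit was tested on simulated data, with known changes in seeded genes. Folds are ratios of mean normalized counts. Members, lists and tests were chosen with earlier results of these data known. Named genes were the members, Arhgef11, Per1, Ciart, Tef, Hlf, Nfil3, list members past the threshold or the 2 with the smallest p, and the 5 genes most and least like Bmal1 and Dbp (unnamed gene models skipped). Alternatives covered the filter, pseudocounts of 1 and 10, scaling, blocks, trend, weights and each library left out. A result that the rule for named genes would include is not reported here.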

Additional observations from a re-analysis of the deposited data

Results flagged for a closer look

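In each of 29 sets of 5 control values (the members and the other named genes), the gap between the most extreme library and its nearest neighbour was divided by the whole range; 4 sets exceeded the 95% critical value of 0.71, and chance alone exceeds it in about 1 of 20 sets. For Nr1d1, control replicate 2 stood above the other controls with a ratio of 0.842. For Nfil3, the same library stood below the others with a ratio of 0.816. For Aqp4, control replicate 2 again stood apart, with a ratio of 0.712. For Fkbp5, control replicate 3 stood above the others with a ratio of 0.82.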

How the results depend on the processing

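Of 170 values of the members' group differences under the alternatives, 143 kept their direction and their side of the threshold, 3 newly passed and 24 changed sign. Cry1 was higher in the Arhgef11Sglt2 libraries in every alternative run, with an adjusted p from 0.0337 to 0.321. Of all genes, 354 passed; 874 did with array weights, 81 without control replicate 2 and Arhgef11Sglt2 replicate 3 (chosen after seeing the data), and from 24 (without control replicate 4) to 1334 (without Arhgef11Sglt2 replicate 1) with 1 library left out. The members that passed numbered 1 with array weights and from 0 to 2 with 1 library left out. Groups share replicate numbers, but same-numbered libraries did not deviate together (r = -0.175, -0.088 and -0.007); with a replicate block in limma, 0 genes passed adjustment and 2166 had an unadjusted p under 0.05, and the log2 difference was 0.03 for Bmal1, 0.06 for Clock, -0.09 for Dbp, -0.03 for Per2 and -0.04 for Ciart, each of opposite sign.

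Further sign changes, some as large as the reported value, were these. Scaling to equal totals gave 0.0065 for Clock. Array weights gave 0.05 for Clock, -0.0022 for Npas2, 0.03 for Arhgef11 and -0.02 for Nfil3. Leaving out control replicate 2 and Arhgef11Sglt2 replicate 3 gave 0.0087 for Clock, -0.03 for Nr1d2, Per2 and Ciart, and -0.0097 for Nfil3. With 1 or both of these libraries, or any other single one, left out, log2 differences ran from -0.29 to 0.0012 for Bmal1, -0.09 to 0.05 for Clock, -0.13 to 0.16 for Npas2, -0.38 to 0.10 for Nr1d1, -0.11 to 0.36 for Nr1d2, -0.18 to 0.41 for Dbp, -0.27 to 0.16 for Per3, -0.04 to 0.19 for Per2, -0.12 to 0.08 for Arhgef11, -0.15 to 0.20 for Ciart, -0.29 to 0.04 for Tef, -0.35 to 0.14 for Hlf and -0.07 to 0.10 for Nfil3. The cause was not tested. Pairs that passed went from 14 to between 7 (without control replicate 5) and 20 (without Arhgef11Sglt2 replicate 2). Each member had at least 171.5 normalized counts in every library, and the small number of libraries limits the precision of each difference.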

Other observations

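Several genes were looked at after their values were seen. Cirbp, which encodes a cold-inducible RNA-binding protein known to affect clock transcripts, had 1147, 1111, 1029, 1043 and 1076 normalized counts in the controls and 827.3, 2035 and 3873 in the Arhgef11Sglt2 libraries. Rbm3, its close relative, had 6345, 4683, 4476, 4746 and 4900 in the controls and 3966, 9538 and 12793 in the Arhgef11Sglt2 libraries. For both genes replicate 1 of the Arhgef11Sglt2 group lay below all controls and replicates 2 and 3 above all of them, the arrangement that Cry2 has, and neither passed (limma adjusted p = 0.249 for Cirbp and 0.256 for Rbm3). Ucp1, the uncoupling protein of brown fat, had 2352 normalized counts in control replicate 2, 138 in control replicate 1, 75.97 and 72.82 in Arhgef11Sglt2 replicates 1 and 2, and at most 4.228 in the other 4 libraries.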
